A study of Zea mays with 6 samples.

Results

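The glossy genes of maize (Zea mays) are named for seedlings whose leaves turn bright green and hold water droplets when the wax on the leaf surface is lost. The 5 classical loci described here, gl1, gl2, gl4, gl8a and gl15, were taken by their gene IDs in the B73 RefGen_v4 annotation, out of 45855 genes in the deposited tables. The IDs were Zm00001d020557 for gl1, Zm00001d002353 for gl2, Zm00001d051787 for gl4, Zm00001d017111 for gl8a and Zm00001d046621 for gl15. They are the loci known from genetics and were picked by name, not by a cutoff on any value measured here, although earlier results of these data were known when they were picked. All 5 genes had enough counts to be tested. The pairing of each ID with its name rests on published knowledge, since the reference table used here lists glossy names but no ID of that series.

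Polyadenylated RNA was sequenced from whole seedlings at the coleoptile stage, when the shoot is still inside or just leaving its sheath. There were 3 samples labelled Fdl1-/- and 3 labelled wild type, described as biological replicates. The FDL1 gene (fused leaves1) codes for a MYB-type regulator of transcription, and seedlings that lack it are known for fused organs and an altered cuticle. Neither the lesion of the Fdl1 allele nor the genetic background is stated in the labels, and whole seedlings hold many tissues beside the epidermis, where wax is made. In such samples fewer epidermal cells and less RNA per cell cannot be told apart.

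Cuticular wax is built in the epidermis from very-long-chain fatty acids, which the elongase complex of the endoplasmic reticulum lengthens by a pair of carbons per round. Each round starts with a condensing enzyme, a 3-ketoacyl-CoA synthase, and continues with a reductase, a dehydratase and a second reductase. The products are then converted into alcohols, aldehydes, alkanes and esters and moved to the surface. In juvenile maize leaves this wax forms dense crystals, and the switch to adult leaves, which lose them, is under developmental control. In this scheme gl4 encodes a 3-ketoacyl-CoA synthase, gl8a encodes the 3-ketoacyl reductase of the elongase, and gl2 encodes an acyltransferase-like protein related to CER2 of Arabidopsis, which is known there to promote the last elongation rounds. The gl1 protein is related to CER3/WAX2 of Arabidopsis, which acts in the formation of alkanes. The fifth gene, gl15, encodes an AP2 transcription factor that maintains juvenile leaf identity, including juvenile wax, and is a known target of the microRNA miR172.

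Library totals ran from 26807205 to 36123679 expected counts, which are reads per gene as estimated by the RSEM program. Wild-type replicate 1 stood apart, with a mean correlation of log abundance of 0.944 with the other wild-type libraries, against 0.956 to 0.977 for every other library with its own group. The fold change of each glossy gene is therefore given with and without that library. The FDL1 locus itself (Zm00001d022227, an ID recalled from published work) had 3.40 to 3.99 TPM in Fdl1-/- libraries and 3.35 to 4.84 TPM in wild-type libraries. Its log2 fold change was -0.28 (adjusted p 0.651 in edgeR's quasi-likelihood test), or -0.23 without wild-type replicate 1, so its level does not separate the genotypes. The mean transcript length that RSEM gives for the locus did not overlap, at 1542.0 to 1553.9 nt in Fdl1-/- libraries and 1606.83 to 1621.0 nt in wild-type libraries. This length rests on 125.89 to 179 counts per library and was not tested. The share of all genes whose lengths do not overlap was not counted. TPM is a level scaled to transcript length and to the library total, and is used wherever different genes are compared.

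Of the 5 glossy genes, gl15, gl2 and gl8a were lower in every Fdl1-/- library than in any wild-type library, while gl1 and gl4 overlapped between the groups. The mean TPM of Fdl1-/- was 0.302 times that of wild type for gl15, 0.355 times for gl2 and 0.675 times for gl8a. None of the 5 passed an adjusted p under 0.05 in edgeR's quasi-likelihood test with Benjamini-Hochberg adjustment over all 26098 tested genes. The nearest was gl15 (adjusted p 0.0593). Of all tested genes 2.68% passed in either direction and 0.996% passed as lower. An unadjusted p under 0.05 was reached by 3 of the 5 glossy genes, all lower, against 8.07% of all tested genes that were lower at that level. Groups that did not overlap, with Fdl1-/- lower, were found for 3 of the 5 and for 11.2% of all tested genes, and 21.9% of all tested genes did not overlap in either direction. Leaving out wild-type replicate 1 could not make these 3 genes overlap, so it is no check on them, and gl1 and gl4 still overlapped without it. Log2 fold changes had a median of -0.61 over the 5 glossy genes and of -0.033 over everything tested.

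**Figure D1:**
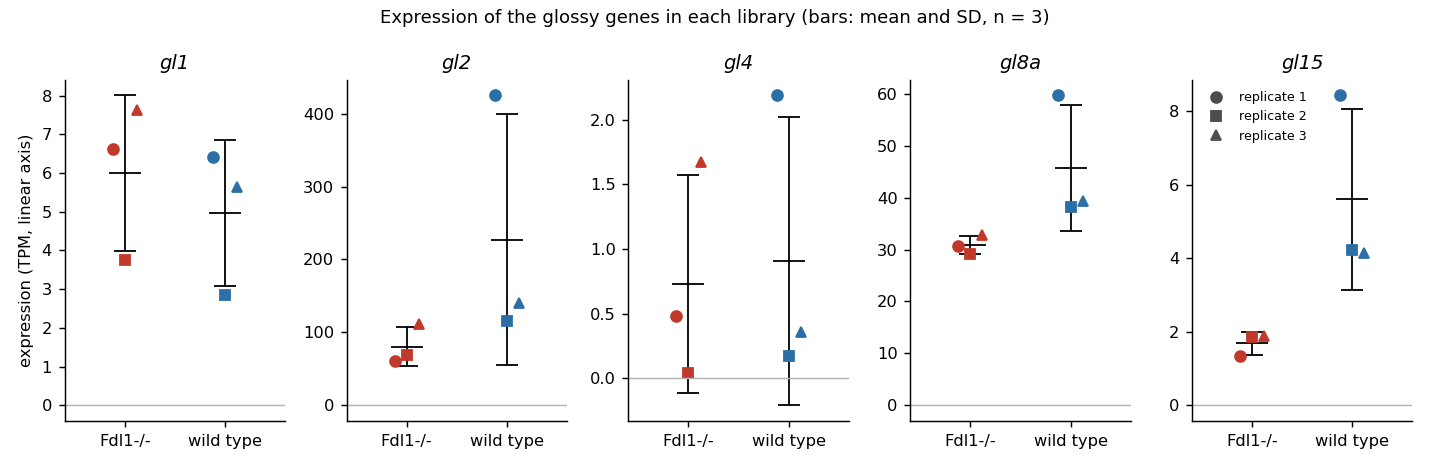
Expression of each glossy gene in TPM (linear vertical axis, a separate scale for each gene) in the 3 Fdl1-/- and the 3 wild-type libraries. Points are libraries, shaped by replicate, and bars give the mean and SD of each group. For gl2, gl8a and gl15 every red point lies below every blue point, and wild-type replicate 1 is the highest blue point in all 5 panels.

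The regulator gl15 had the lowest log2 fold change of the 5 with all 6 libraries in edgeR. In other settings gl2 or gl4 lay further from 0, as gl4 did without Fdl1-/- replicate 3 (-1.96, against -1.86 for gl15). The level of gl15 was 1.33, 1.86 and 1.88 TPM in Fdl1-/- replicates 1, 2 and 3, from 58 to 101 counts. In wild-type replicates 1, 2 and 3 it was 8.43, 4.23 and 4.14 TPM, from 202 to 365.23 counts. All mutant values lay far below the lowest wild-type value, and wild-type replicate 1 stood at 2.01 times the mean of the other wild-type libraries. The group means were 1.69 ± 0.312 TPM in Fdl1-/- and 5.60 ± 2.45 TPM in wild type (SD, n = 3 each). The log2 fold change of gl15 was -1.78 (SE 0.38), its 95% interval ran from -2.67 to -0.90, and edgeR gave it an adjusted p of 0.0593. Only 0.835% of tested genes had a lower log2 fold change than gl15. The call turned on the tool: DESeq2 gave an adjusted p of 0.000211 for gl15, in a test in which 3.18% of genes were called as lower. Leaving out wild-type replicate 1 gave -1.30 (SE 0.22), and edgeR's adjusted p was then 0.0442. Its size was thus smaller and its spread narrower without that library, and 0.965% of tested genes were called as lower in that fit.

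The microRNAs known to act on leaf phase, miR172 on gl15 and miR156 on an earlier step, were looked up through the genes named for them. All 4 miR172 genes in the tables were listed at 0 counts in all 6 libraries, which allows up to 3 counts, or 0.083 to 0.112 CPM (counts scaled to library size), per library, as counting error alone. Of 11 miR156 genes 7 had a count in some library, and 1 of the 15 genes of both families had enough counts to be tested. That gene, MIR156f, had 1.08 to 10.19 TPM in Fdl1-/- libraries and 2.45 to 4.67 TPM in wild-type libraries. Over a length of 167 nt these levels rest on few counts, 3.37 to 25.39 in Fdl1-/- and 7.61 to 13.06 in wild-type libraries. The mutant range enclosed the wild-type range, and the adjusted p was 0.801 in edgeR. The tables list these genes at lengths of 74 to 174 nt, so only reads of polyadenylated RNA that matched such short stretches were counted. Neither whole primary transcripts nor mature microRNAs were measured.

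Of the 3 members that act in fatty acid elongation, gl2 was the most abundant and gl4 the least. The level of gl2 was 61.17, 69.29 and 111.51 TPM in Fdl1-/- replicates 1, 2 and 3. In wild-type replicates 1, 2 and 3 the level of gl2 was 425.10, 115.15 and 140.78 TPM. The groups did not overlap, but the highest mutant library and the lowest wild-type library lay close together, and wild-type replicate 1 stood at 3.32 times the mean of the other wild-type libraries. The group means were 80.7 ± 27.0 TPM in Fdl1-/- and 227 ± 172 TPM in wild type (SD, n = 3 each). The log2 fold change of gl2 was -1.57 (SE 0.55), its 95% interval ran from -2.86 to -0.29, and edgeR gave it an adjusted p of 0.215. It became -0.66 (SE 0.25) without wild-type replicate 1, where edgeR's adjusted p was 0.227. In TPM the mutant mean was then 0.630 times the wild-type mean, against 0.355 times with all libraries, so that 1 library carried much of the size. In wild type gl2 stood above 97.3% of tested genes by mean TPM, and in Fdl1-/- above 91.2%.

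The reductase gene gl8a differed by less but was the steadiest of the 5 within the mutant. It had 30.75, 29.15 and 32.74 TPM in Fdl1-/- replicates 1, 2 and 3, a coefficient of variation of 5.82%. In wild-type replicates 1, 2 and 3 gl8a had 59.69, 38.20 and 39.32 TPM. The lowest wild-type library lay above the highest mutant library, and wild-type replicate 1 was again the highest. The group means of gl8a were 30.9 ± 1.80 TPM in Fdl1-/- and 45.7 ± 12.1 TPM in wild type (SD, n = 3 each). Its log2 fold change was -0.61 (SE 0.21), its 95% interval ran from -1.11 to -0.11, and edgeR gave it an adjusted p of 0.212. It became -0.32 (SE 0.09) without wild-type replicate 1, where edgeR's adjusted p was 0.120. This gene is the only one of the 5 with more than 1 annotated transcript, and the length that RSEM averages over its 2 transcripts was 1553.5 ± 4.39 nt in Fdl1-/- and 1549.9 ± 7.37 nt in wild type (SD, n = 3 each). The difference of 3.61 nt had an exact permutation p of 0.6 (two-sided), and 3 against 3 samples cannot go below 0.1.

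The condensing enzyme gene gl4 had few counts and varied widely within both groups. These counts are low for a gene with a known part in seedling wax, and whether Zm00001d051787 is the right ID for gl4 was not tested, so its values describe that ID. Expected counts of gl4 were 14.15, 1.46 and 58.33 in Fdl1-/- replicates 1, 2 and 3. In wild-type replicates 1, 2 and 3 they were 64.85, 6.17 and 12.11. Both groups thus held 1 library with about 60 counts and others far lower, and the value of Fdl1-/- replicate 2 lay under a floor of 3 counts. In TPM the level of gl4 was 0.04 to 1.67 in Fdl1-/- libraries and 0.17 to 2.19 in wild-type libraries, with the groups overlapping. The log2 fold change of gl4 was -0.41 (SE 1.29), its 95% interval ran from -3.45 to 2.62, and edgeR gave it an adjusted p of 0.929. It was 1.47 (SE 1.29) without wild-type replicate 1, so even its sign rested on single libraries. Within the groups its highest TPM was 41.8 times the lowest in Fdl1-/- and 12.9 times the lowest in wild type, and a difference of the size seen lies well inside that spread.

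The alkane-pathway gene gl1 was the one member with a mean level above wild type in the mutant, by less than the spread. It had 6.61, 3.75 and 7.63 TPM in Fdl1-/- replicates 1, 2 and 3. In wild-type replicates 1, 2 and 3 gl1 had 6.42, 2.85 and 5.63 TPM. The lowest value of each group was its replicate 2, and the groups overlapped over most of their range. The group means of gl1 were 6.0 ± 2.01 TPM in Fdl1-/- and 4.97 ± 1.88 TPM in wild type (SD, n = 3 each). The log2 fold change of gl1 was 0.22 (SE 0.38), its 95% interval ran from -0.66 to 1.11, and edgeR gave it an adjusted p of 0.858. Leaving out wild-type replicate 1 gave 0.51 (SE 0.38), and edgeR's adjusted p was then 0.527. The sign turned without wild-type replicate 2, at -0.063 (SE 0.32).

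**Figure D2:**
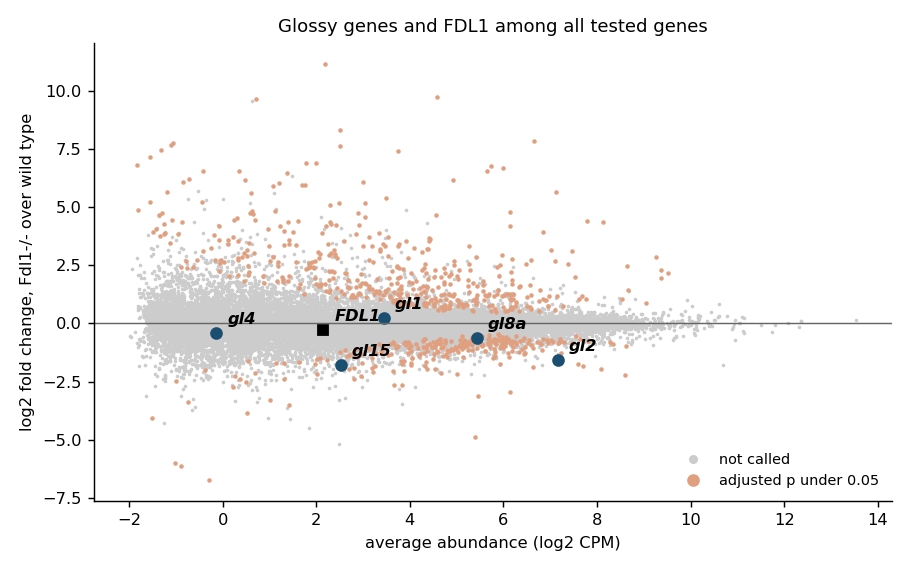
Log2 fold change of Fdl1-/- over wild type (vertical axis) against average abundance in log2 CPM (horizontal axis) for 26098 tested genes. Grey points did not pass and orange points passed an adjusted p under 0.05 in edgeR, blue circles are the 5 glossy genes and the black square is the FDL1 locus. The genes gl15 and gl2, at log2 fold changes of -1.78 and -1.57, lie among the lower points at their abundance, and gl1, gl4 and FDL1 lie within the grey band.

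The interval of each fold change shows how unequally the 5 genes were measured. It was narrowest for gl8a and widest for gl4. For gl15, gl2 and gl8a it stayed below 0, but these intervals are not adjusted for the number of genes tested. Leaving out 1 library at a time moved the log2 fold change of gl15 between -1.98 and -1.30, that of gl2 between -1.90 and -0.66 and that of gl8a between -0.74 and -0.32. Leaving out wild-type replicate 1 gave the smallest difference for all 3 of these genes. For gl1 the values lay between -0.063 and 0.51, and for gl4 between -1.96 and 1.47.

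**Figure D3:**
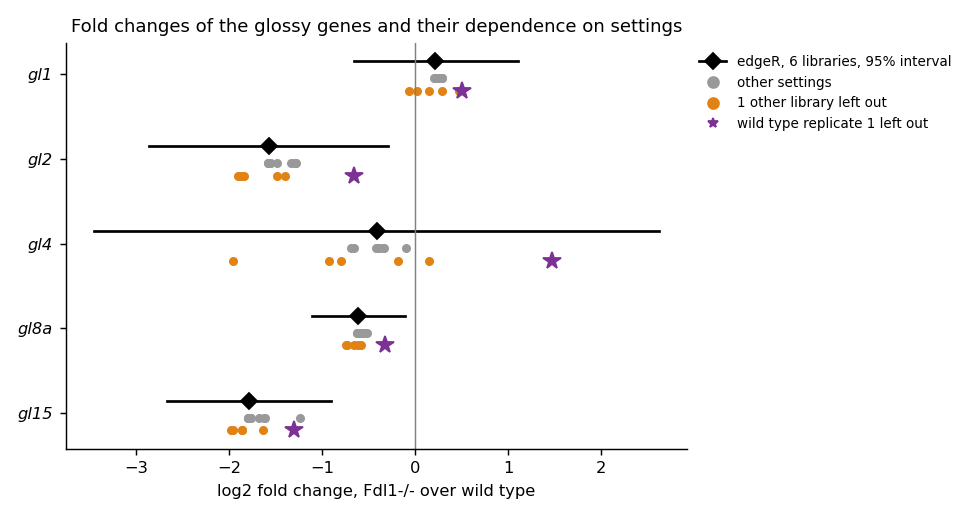
Log2 fold change of Fdl1-/- over wild type (horizontal axis) for each glossy gene. Black diamonds with lines give the edgeR value with all 6 libraries and its 95% interval, grey points other settings, orange points the values with 1 other library left out, and purple stars those without wild-type replicate 1. Among the values with 1 library left out, the stars lie nearest to 0 for gl2, gl8a and gl15, at -0.66, -0.32 and -1.30. For gl15 a grey point, limma on TPM with a pseudocount of 1, lies nearer to 0, at -1.24. For gl4 the star lies on the other side of 0 from the diamond, at 1.47.

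By level, gl2 came first, gl8a second and gl4 last in all 6 libraries. The order of gl1 and gl15 differed. In all 3 Fdl1-/- libraries gl1 stood above gl15, at 3.75 to 7.63 TPM against 1.33 to 1.88 TPM. In wild type the 2 genes overlapped, at 2.85 to 6.42 TPM for gl1 and 4.14 to 8.43 TPM for gl15, and gl1 was the higher of them in replicate 3 only. In neither group did the ranges of gl2 and gl8a overlap with each other or with those of the remaining genes. At the low end the ranges of gl15 and gl4 overlapped in Fdl1-/-, at 1.33 to 1.88 TPM and 0.04 to 1.67 TPM. Within each Fdl1-/- library gl4 was still the lower of them. In wild type the range of gl4, 0.17 to 2.19 TPM, lay below those of both gl1 and gl15. The summed level of the 5 genes was 100.3 to 155.4 TPM in Fdl1-/- libraries and 160.6 to 501.8 TPM in wild-type libraries, or 160.6 to 190.2 TPM in the wild-type libraries other than replicate 1. Of that sum gl2 alone made up 61.0% to 71.7% in Fdl1-/- and 71.7% to 84.7% in wild type. In the wild-type libraries other than replicate 1 its share was 71.7% and 74.0%.

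Ratios of 2 glossy genes within a library do not depend on how libraries are scaled to each other. The log2 ratio of gl1 to gl15 was 1.01 to 2.31 in Fdl1-/- libraries and -0.57 to 0.44 in wild-type libraries, a difference of 1.95. The log2 ratio of gl1 to gl2 was -4.21 to -3.21 in Fdl1-/- and -6.05 to -4.64 in wild type, a difference of 1.58. The log2 ratio of gl8a to gl15 was 3.97 to 4.53 in Fdl1-/- and 2.82 to 3.25 in wild type, a difference of 1.13. For these 3 of the 10 pairs the groups did not overlap, with gl15 lower relative to both gl1 and gl8a, and gl2 lower relative to gl1. These pairs share members and are not separate results, and the share among other pairs of genes was not counted. For each of the 3 pairs the exact permutation p was 0.1 (two-sided), the smallest possible here, and 0.333 after Benjamini-Hochberg adjustment over the 10 pairs. The log2 ratio of gl2 to gl15 overlapped, at 5.22 to 5.89 in Fdl1-/- and 4.77 to 5.66 in wild type, with an exact permutation p of 0.4. The number of pairs that did not overlap was 6 without Fdl1-/- replicate 2 and 4 without wild-type replicate 1. Leaving out a library can only keep or raise this number, so it is no check on the 3 pairs.

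Within each group the glossy genes were high in the same library. In TPM, wild-type replicate 1 was the highest wild-type library for 5 of the 5 genes, and Fdl1-/- replicate 3 the highest mutant library for 5 of the 5, for gl15 by 1.88 against 1.86 TPM. In TMM-scaled CPM both held for 4 of the 5, and they held together for 20.3% of all tested genes. In wild-type replicate 1, 4 of the 5 genes stood at 1.5 times each other wild-type library or more in CPM, as 18.4% of all tested genes did. Markers of green leaf tissue showed the same libraries at the top. For pep1, ppdk1, ssu1 and ssu2, which encode the C4 enzymes PEP carboxylase and pyruvate phosphate dikinase and the small subunit of Rubisco, wild-type replicate 1 and Fdl1-/- replicate 3 were the highest of their groups in CPM. The level of ssu1, for example, was 457.46, 317.57 and 837.12 TPM in Fdl1-/- replicates 1, 2 and 3 and 590.18, 266.06 and 272.05 TPM in wild-type replicates 1, 2 and 3. The meristem marker kn1 did not share that order, at 20.98, 17.96 and 16.64 TPM in Fdl1-/- replicates 1, 2 and 3 and 10.69, 12.67 and 12.08 TPM in wild-type replicates 1, 2 and 3.

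Between the groups 1 of the 5 markers, ppdk1, passed the test, as higher in Fdl1-/-. Among all tested genes 2.68% passed in either direction. The level of ppdk1 was 112.85 to 244.04 TPM in Fdl1-/- libraries and 20.10 to 33.73 TPM in wild-type libraries, a log2 fold change of 2.56 (SE 0.40), and edgeR's adjusted p was 0.0259. The level of kn1 was 16.64 to 20.98 TPM in Fdl1-/- libraries and 10.69 to 12.67 TPM in wild-type libraries, and edgeR gave an adjusted p of 0.0575. The groups overlapped for pep1, ssu1 and ssu2, whose log2 fold changes were 1.47, 0.45 and 0.14, with edgeR's adjusted p at 0.304, 0.739 and 0.930. The summed level of the 5 markers was 617.1 to 1622.9 TPM in Fdl1-/- libraries and 481.2 to 1017.0 TPM in wild-type libraries, and no marker was at 0. Their IDs were recalled from published work. The part of tissue composition in the differences of the glossy genes was not tested, and epidermal markers were not analysed here.

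**Figure D4:**
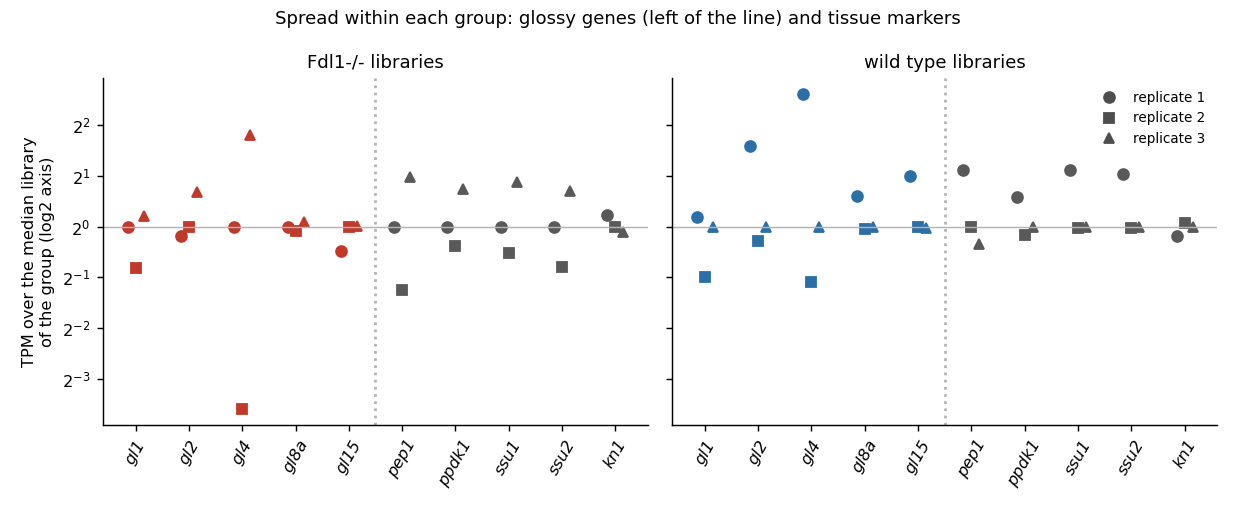
TPM of each library divided by the median library of its group (vertical log2 axis) for the 5 glossy genes, left of the dotted line, and 5 tissue markers, right of it, in Fdl1-/- and wild-type libraries. Circles, squares and triangles are replicates 1, 2 and 3. Replicate 3 is the highest of the Fdl1-/- libraries and replicate 1 the highest of the wild-type libraries for every gene but kn1, and gl4 has the widest spread.

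The genes whose abundance ran most alike over the 6 libraries were sought for the 2 most abundant members by the Pearson correlation of log-CPM, which is given as a description since all genes share the same libraries. For gl2 it was Zm00001d007509 (r = 0.9997), at 0.09 to 0.27 TPM in Fdl1-/- libraries and 0.27 to 1.5 TPM in wild-type libraries. For gl8a it was Zm00001d031893 (r = 0.9984), at 58.55 to 72.35 TPM in Fdl1-/- libraries and 110.97 to 254.75 TPM in wild-type libraries. Both profiles follow the high value of wild-type replicate 1, and correlations above 0.95 with gl2 were found for 478 of 26093 other tested genes and with gl8a for 458. At the low level of Zm00001d007509 log-CPM also depends on the prior count of 2. The correlation takes no account of the size of a change. The log2 fold changes of Zm00001d007509 and Zm00001d031893 were -2.18 and -1.78, against -1.57 for gl2 and -0.61 for gl8a. The sources used here give no names for these IDs.

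The neighbours of the glossy genes in the gene order of the tables were counted as context. Of the genes within 5 gene numbers, 5 were tested around gl15, 9 around gl2 and 6 around gl8a, and 0 of them passed in edgeR. Around gl1 1 of 7 tested neighbours passed, and around gl4 0 of 7. Groups did not overlap for 5 of the 9 neighbours of gl2, 4 of the 7 of gl4, 2 of the 7 of gl1, 1 of the 6 of gl8a and 1 of the 5 of gl15, against 21.9% of all tested genes. Log2 fold changes below 0 were found for 6 of the 9 neighbours of gl2 and 4 of the 7 of gl4. They were found for 3 of the 5 of gl15, 2 of the 7 of gl1 and 2 of the 6 of gl8a. Around gl2 the values ran from -1.33 to 2.29, and the median over everything tested was -0.033. Counts of gl2 were whole in 6 of 6 libraries and those of gl15 in 5 of 6, within 0.005, whereas those of gl1, gl4 and gl8a were whole in none. Those of the tissue markers pep1, ppdk1, ssu1, ssu2 and kn1 were whole in none either. Fractional counts arise where RSEM divides reads between similar genes. The levels of gl1, gl4, gl8a and the markers are thus uncertain where near copies exist. A near copy of gl8a is known, gl8b, which was not analysed here.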

How the data were processed

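Each of the 6 deposited tables is RSEM gene output, per the file headers. Per the submitters' processing notes the tools were Bowtie2, RSEM, DESeq2 and limma, with no version or role given, and the build was B73 RefGen_v4. The library kit was TruSeq Stranded mRNA, per the labels' protocols. The deposited expected counts are estimates by the authors' RSEM run that divide shared reads. The deposited TPM and FPKM values correct counts for transcript length and library size, and FPKM served only as an alternative for the order of levels. The deposited length is a mean over annotated transcripts.

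Rounded expected counts entered edgeR 4.0.16 under R 4.3.3. Low genes were removed by filterByExpr (minimum count 10, minimum total count 15), libraries scaled by TMM, and the two-sided quasi-likelihood test adjusted by Benjamini-Hochberg at 0.05, with no replicate block. Fold changes are Fdl1-/- over wild type, and standard errors were derived from the F statistic. Log-CPM used a prior count of 2. The script was tested on simulated data. Alternatives were DESeq2 1.42.0, limma 3.58.1, other scalings, filters, TPM with pseudocounts of 1 and 0.1, length corrections, leaving out each library, and a replicate block. Floors cover counting error only, while the intervals of fold changes include the spread between replicates.

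The 5 genes follow a rule on names and not on values, but they and the lists were chosen with earlier results of these data known. Genes named are the 5 glossy genes, FDL1, miR156 and miR172 genes, the tissue markers and the 1 most alike gene for each of the 2 most abundant members. A wider wax and cuticle list had 0 genes matched, since the reference table (assembly NAM-5.0) holds 0 IDs beginning Zm00001d. Of 6 recalled tissue markers 5 were in the tables. Neighbour counts and the comparison of highest libraries were added after the data were seen.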

Additional observations from a re-analysis of the deposited data

How the results depend on the processing

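The log2 fold changes of gl2, gl8a and gl15 stayed below 0 under all 17 alternatives, which the absence of overlap between the groups largely fixed. None of gl1, gl2, gl4 and gl8a passed the threshold under any alternative, with adjusted p of 0.105 to 0.491 for gl8a and 0.141 to 0.533 for gl2. For gl15 adjusted p ran from 0.000211 to 0.229, and 4 alternatives passed: DESeq2 (log2 fold change -1.78), no filter on low counts (-1.77, adjusted p 0.0474 in edgeR), and leaving out wild-type replicates 1 (-1.30) or 3 (-1.98, adjusted p 0.0482 in edgeR). Leaving out each library in turn gave -1.98 to -1.30 for gl15, -0.063 to 0.51 for gl1 and -1.96 to 1.47 for gl4, which turned sign without wild-type replicate 1 and without Fdl1-/- replicate 2 (0.15). A filter of 1 CPM in 3 libraries removed gl4 by its own rule.

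Over all genes edgeR called 699, DESeq2 1993, and the replicate block 122. Without 1 library the count was 128 to 837, and it was 128, 184, 193 and 149 without Fdl1-/- replicates 1, 2 and 3 and wild-type replicate 2. The causes were not tested. Deviations from the group means correlated at -0.22, 0.13 and -0.18 between samples with the same number, so the numbers gave no sign of pairing. Between samples with different numbers the correlations ran from -0.18 to 0.27, the highest for Fdl1-/- replicate 3 with wild-type replicate 1. With the replicate block gl15 had a log2 fold change of -1.68 and an adjusted p of 0.203 in edgeR. The number of libraries with the order gl2, gl8a, gl1, gl15, gl4 was 4 of 6, and 3 to 4 without 1 library. Pairs whose ratios did not overlap numbered 3 to 6 without 1 library, a count that could not fall below the 3 found with all libraries. The length difference of gl8a was -0.49 to 6.66 nt without 1 library. Few counts and wide spread between replicates both limit gl4, and 3 replicates per group limit all 5 genes.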
